A study of Mus musculus with 4 samples.

Results

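The SLC25 family holds carrier proteins, most of which move metabolites across the inner membrane of mitochondria. IGF2BP3 binding to the RNAs of the family members was measured in mouse testis by eCLIP-seq. Members were the protein-coding genes of GENCODE release M21 whose symbol begins with Slc25a followed by a digit, which gave 47 of 21951 genes. A cluster of reads belonged to a member where its centre lay within the gene on the same strand. This gave 632 of 337234 clusters in replicate 1 and 407 of 216354 in replicate 2.

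All 4 libraries came from whole testes of wild type C57BL/6 males aged 8 weeks, in which germ cells and somatic cells were crosslinked together, each preparation starting from a pair of testes. In the IP group, RNA bound to IGF2BP3 was pulled down with an antibody. In the SMInput group, the size-matched input, RNA of the same lysate was sequenced with no antibody. Each group had 2 replicates, which the study calls biological, and the labels do not say whether they came from separate animals. The recovered library totals were 5133438 IP and 8706391 SMInput reads in replicate 1, and 4637612 and 16696122 reads in replicate 2. Each cluster carried a log2(fold change) of IP over SMInput, scaled to the library totals, and a −log10(P value) that compares the reads of those libraries and not of groups of animals. A cluster counted as significant where both values reached 2.

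Carriers of this family share a fold of repeated membrane helices and exchange or import a particular substrate, such as ADP for ATP, phosphate, citrate, amino acids, nucleotides, cofactors or glutathione. Nuclear genes encode them, and the proteins are made in the cytosol and passed to the inner membrane by the TIM22 import complex. Spermatogenesis is a setting where the family is known to matter, since Slc25a31 encodes the ADP/ATP carrier of male germ cells, which mice need to complete meiosis. IGF2BP3 is an RNA-binding protein with KH domains that binds mRNAs in the cytoplasm.

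Markers of the labelled tissue were present in the libraries. The spermatid gene Prm1, a protamine, had a highest cluster of 445 IP reads and 358 SMInput reads in replicate 1 and of 375 and 639 reads in replicate 2. The germ cell gene Dazl had 14 significant clusters of 24 in replicate 1 and 10 of 20 in replicate 2. For Ddx4, the other germ cell gene listed, the counts were 11 of 75 and 7 of 76. In 4 spermatocyte genes they were 0 of 227 and 6 of 182. Somatic cells were present too, since the Leydig cell gene Insl3 reached 274 and 273 IP reads in its highest clusters. The other Leydig cell genes listed peaked far lower, at 8 and 4 IP reads in Star and 20 and 16 in Cyp17a1. Cyp11a1 peaked at 10 and 9 IP reads and Hsd3b6 at 6 and 10. Of the 4 Sertoli cell genes listed, Wt1 had 82 and 65 clusters and Sox9 had 7 and 8. Amh had 1 and 3 clusters with at most 4 IP reads, and Rhox5 had 5 in replicate 1 and none in replicate 2. No cluster lay in the hepatocyte gene Alb or the cardiomyocyte gene Myh6, and the leukocyte gene Ptprc had 4 and 2 clusters with at most 5 IP reads. In these bulk samples, fewer cells of a type and less RNA per cell cannot be told apart.

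Across the family, IGF2BP3 clusters passed the thresholds about as often as elsewhere. In replicate 1, 28 of 632 member clusters were significant, or 4.43%, beside 4.92% of all clusters. In replicate 2, 51 of 407 were significant, or 12.5%, beside 13.2% of all clusters. Neither share stood apart from its background.

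By gene, 12 of 47 members had a significant cluster in replicate 1, or 25.5%, beside 26.1% of all protein-coding genes, and among genes with a cluster in that replicate 28.6%, beside 40.8%. In replicate 2 the count was 25 of 47, or 53.2%, beside 36.8%. Most members had some cluster, 42 in replicate 1 and 44 in replicate 2, and among genes with a cluster in replicate 2 the share was 56.8% in the family and 62.8% overall. The family thus exceeded the background in replicate 2 over all genes and stayed below it over genes with a cluster. Significant clusters in both replicates were found in 10 of 47 members, or 21.3%, beside 21.9% of all protein-coding genes. Of the genes with clusters in both replicates, they were found in 23.8% of the family and 39.1% overall.

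A stricter reading asks for significant clusters of the 2 replicates that share at least 1 base on the same strand. Such a site lay in 6 of 47 members, or 12.8%, beside 9.33% of all protein-coding genes. Of the genes with clusters in both replicates, it lay in 14.3% of the family and 16.6% of all, so the order depends on the genes counted. The 6 members were Slc25a1, Slc25a30, Slc25a31, Slc25a35, Slc25a39 and Slc25a46, with 7 sites between them. Of the significant member clusters, 9 of 28 in replicate 1 and 7 of 51 in replicate 2 took part in a site, or 32.1% and 13.7%. Over all protein-coding genes these shares were 32.9% and 18.4%.

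**Figure D1:**
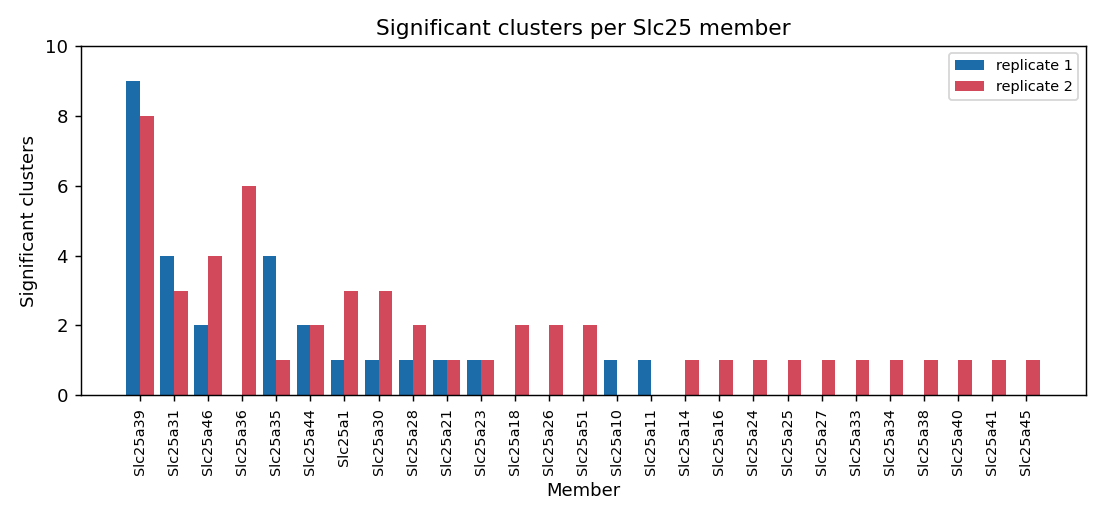
Number of significant clusters (vertical axis) in each of the 27 Slc25 members with at least 1, in replicate 1 (blue bars) and replicate 2 (red bars). Slc25a39 had the most, 9 and 8, and 15 members (31.9%, beside 14.8% of all protein-coding genes) had bars in replicate 2 alone.

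By substrate, the counts of members with a significant cluster are read beside 26.1% and 36.8% of all protein-coding genes in replicates 1 and 2. Among all genes with a cluster these shares were 40.8% and 62.8%. Of the 3 adenine nucleotide carriers, 1 had a significant cluster in each replicate, which was Slc25a31 in both. Of the 4 carboxylate carriers, 4 had one in replicate 1 and 2 in replicate 2. Of the 4 iron and glutathione carriers, the counts were 2 and 3, and of the 3 members in the branch of the uncoupling proteins 1 and 3. These groups are small, so that a single gene moves their share by a large step, and no difference between groups was tested.

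The 9 carriers of nucleotides and cofactors had significant clusters in replicate 2 alone. None of their 178 clusters in replicate 1 was significant, with a Wilson 95% upper bound of 2.11%, against 12 of 99 in replicate 2, or 12.1% with an interval of 7.07% to 20%. Over all clusters the shares were 4.92% and 13.2%, so that the value of replicate 2 was near its background. Clusters of a gene are not independent, and Slc25a26 held 69 of the 178 and Slc25a36 held 32. No depletion in replicate 1 is read from the bound. The 12 significant clusters of replicate 2 fell in 5 members, 6 of them in Slc25a36, a carrier of pyrimidine nucleotides. Of the 9 amino acid carriers, 1 was significant in replicate 1 and 3 in replicate 2. Of the 5 phosphate and Mg-ATP carriers, the counts were 1 and 4. The acylcarnitine carrier Slc25a20 had 9 and 5 clusters and none was significant.

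The adenine nucleotide carriers exchange ADP for ATP across the inner membrane. Slc25a31, the germ cell form on chromosome 3, had 22 clusters in replicate 1 and 14 in replicate 2, of which 4 and 3 were significant. Its site in the 3′UTR lay at chr3:40725354-40725479 in mm10, plus strand, in the last of 6 exons and 353 bases past the coding sequence. Here 18 IP reads stood against 7 SMInput reads in replicate 1, and 39 against 34 in replicate 2. Scaled to the libraries, these were 3.51 and 0.804 RPM (reads scaled to equal library size) in replicate 1 and 8.41 and 2.04 in replicate 2. The log2(fold change) was 2.12 (95% counting interval 0.80 to 3.63) and 2.05 (1.34 to 2.75), so both values were near the threshold.

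A second site of Slc25a31 lay in the coding sequence of exon 4, at chr3:40721569-40721662. It had 9 IP reads and 1 SMInput read in replicate 1, and 7 and 5 reads in replicate 2. Enrichment was 3.93 (1.08 to 9.39) and 2.33 (0.46 to 4.33) on the log2 scale, and the wide intervals come from the few reads. No cluster table held an SMInput number below 1, so a recovered 1 may stand for a lower number. The other significant clusters of the gene, 2 in replicate 1 and 1 in replicate 2, did not overlap a significant cluster of the other replicate.

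The ADP/ATP carriers Slc25a4 and Slc25a5 had fewer clusters than Slc25a31, in shorter genes, and none was significant. Their genes span 4488 and 3157 bases, beside 17242 for Slc25a31. Per kilobase of the gene, Slc25a4 had 1.34 clusters in each replicate and Slc25a5 had 0.63 and 1.27. For Slc25a31 these values were 1.28 and 0.81. Slc25a4 had 6 clusters in each replicate, with 3 to 12 recovered IP reads in replicate 1 and 4 to 11 in replicate 2. Its log2(fold change) ran from −0.05 to 2.76 and from 0.71 to 1.72. Slc25a5, on the X chromosome, had 2 and 4 clusters with 5 to 6 and 4 to 8 IP reads, and a log2(fold change) from 1.35 to 2.08 and from 0.68 to 1.85. Enrichment past both thresholds was not detectable at these genes at this depth.

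Slc25a3, the phosphate carrier, stood apart by its clusters below 0. In replicate 1, 8 of 14 clusters had a negative log2(fold change), and in replicate 2, 7 of 11. Of these, 6 in each replicate lay within Gm24119, a small nucleolar RNA gene of 246 bases at chr10:91118291-91118536 on the minus strand, which sits in an intron of Slc25a3. Their log2(fold change) ran from −1.82 to −0.31 in replicate 1 and from −1.98 to −0.09 in replicate 2, so that SMInput exceeded IP throughout that RNA. Reads of the snoRNA and of the Slc25a3 intron cannot be told apart by position and strand. Among clusters of Slc25a3 outside it, 6 of 8 and 4 of 5 were above 0, up to 1.98 and 1.41, and none was significant.

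The carriers of iron and glutathione included the member with the most significant clusters. Slc25a39, which brings glutathione into mitochondria, spans 4962 bases of chromosome 11 (chr11:102402985-102407946, minus strand). It had 36 clusters in replicate 1 and 25 in replicate 2, or 7.26 and 5.04 per kilobase of the gene. All of them had a log2(fold change) above 0, from 0.63 to 2.7 in replicate 1 and from 0.90 to 2.88 in replicate 2. A −log10(P value) of at least 2 was reached by 36 of 36 and 24 of 25 clusters, and the fold threshold as well by 9 and 8. Values above 0 are common, since 8.19% and 6.59% of all clusters were below 0, and all clusters of Slc25a35 and Slc25a46 were above 0 too.

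Which clusters of Slc25a39 passed the fold threshold differed between the replicates. In replicate 1, 8 of the 9 were in the coding sequence, with 76 IP and 27 SMInput reads in the one with the highest −log10(P value), at chr11:102403654-102403711 in exon 11. In replicate 2, 5 of the 8 were in the coding sequence and 2 in the 3′UTR, in exon 12, and these 2 had the highest −log10(P value). The cluster at chr11:102403322-102403408 had 127 IP and 62 SMInput reads, with a log2(fold change) of 2.88 and a −log10(P value) of 50.5. The adjoining cluster at chr11:102403256-102403321 had 155 and 109 reads, with values of 2.36 and 46.9. In replicate 1 the same stretch of the 3′UTR was enriched below the fold threshold, for example 88 IP and 39 SMInput reads at chr11:102403326-102403337, with values of 1.94 and 12.9. The highest −log10(P value) of the gene in replicate 1 also lay there, at chr11:102403303-102403325 with 117 IP and 62 SMInput reads.

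The site of Slc25a39 that passed in both replicates lay in the 5′UTR, in exon 1 of 12 and 43 bases before the start codon. At chr11:102407392-102407442 in replicate 1, 32 IP reads stood against 10 SMInput reads. At chr11:102407390-102407453 in replicate 2, the reads were 39 and 31. The log2(fold change) was 2.44 (95% counting interval 1.38 to 3.63) and 2.18 (1.46 to 2.91), and both intervals reach below 2. The gene Mir6930 also lies within Slc25a39 on the same strand, and no significant cluster was centred in it.

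**Figure D2:**
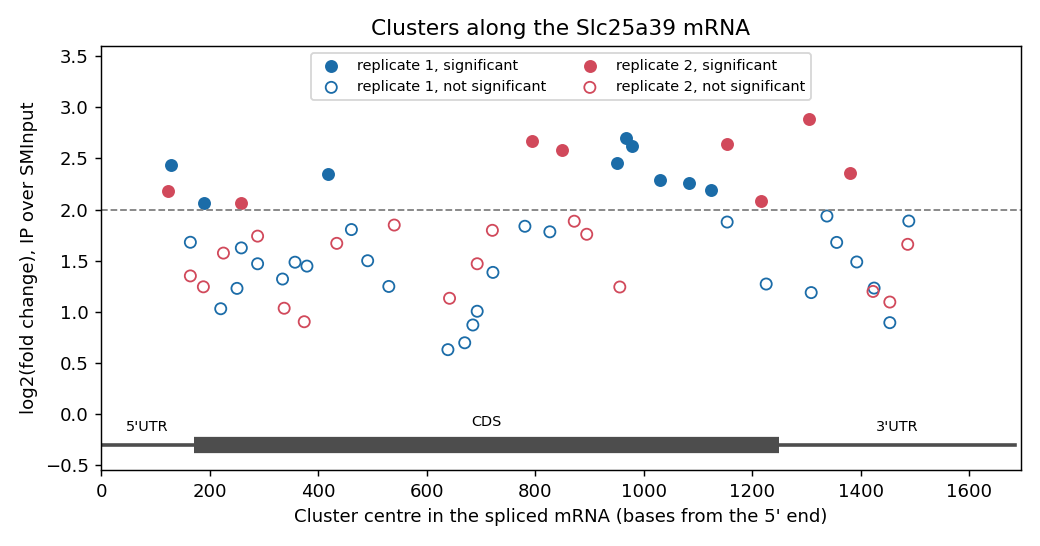
log2(fold change) of IP over SMInput (vertical axis) for each cluster of Slc25a39, placed by its centre in the spliced mRNA of 1685 bases (horizontal axis), in replicate 1 (blue) and replicate 2 (red). Filled circles are significant clusters, the dashed line is the fold threshold of 2 and the bar below is the mRNA with its coding sequence thickened; all 36 and 25 clusters lie above 0.

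The other members of this group had fewer significant clusters. Slc25a28, a mitoferrin that imports iron, had 1 of 14 in replicate 1 and 2 of 20 in replicate 2, all intronic and at different positions. Slc25a40, the close relative of Slc25a39, had 0 of 16 and 1 of 11, the latter in its 3′UTR with 4 IP reads and 1 SMInput read. Slc25a37, the other mitoferrin, had 9 and 7 clusters and none was significant.

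The protein of Slc25a46 sits in the outer membrane of mitochondria, where it takes part in mitochondrial shape and lipid traffic. The shared site of Slc25a46 ranked first in the family by the smaller of the fold changes in the 2 replicates. The site lay in the 3′UTR in exon 8 of 8, at chr18:31582008-31582100 on the minus strand, 1122 bases past the coding sequence. In replicate 1, 20 IP reads stood against 1 SMInput read, and in replicate 2, 28 against 4. Scaled to the libraries, these were 3.90 and 0.115 RPM in replicate 1, and 6.04 and 0.240 in replicate 2. Both IP libraries were thus far above both SMInput libraries.

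The log2(fold change) at the Slc25a46 site was 5.08 (95% counting interval 2.44 to 10.5) in replicate 1 and 4.66 (3.14 to 6.63) in replicate 2, with a −log10(P value) of 7.48 and 14.4. Even the lower bounds exceed the fold threshold. The cluster of replicate 1 has a single SMInput read, and the site was lost when such clusters were left out. Replicate 2 had 3 further significant clusters in the same 3′UTR, at chr18:31582122-31582215, chr18:31582527-31582605 and chr18:31583148-31583183. Their IP reads were 22, 17 and 8 and their SMInput reads 12, 6 and 5. In replicate 1, the cluster over the first of these had 12 and 10 reads and a log2(fold change) of 1.03, and the other 2 stretches had no cluster.

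Slc25a35, a carrier whose substrate is not established, had its shared site near the start of the mRNA. The site covered chr11:68968221-68968359 on the plus strand, within exon 1 of 5 and in the 5′UTR, about 381 bases before the start codon. Replicate 1 gave it as 3 touching clusters with 11, 15 and 32 IP reads and 2, 3 and 5 SMInput reads. Replicate 2 gave it as 1 cluster with 36 IP and 7 SMInput reads. The log2(fold change) was 3.44 (2.07 to 5.16) in the strongest of the 3 clusters and 4.21 (3.02 to 5.62) in replicate 2, with a −log10(P value) of 8.84 and 21.4.

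The intervals of the strongest cluster in replicate 1 and of the cluster in replicate 2 stayed above the threshold, and those of the other 2 clusters in replicate 1 reached down to 1.03 and 1.26. A further cluster of the 5′UTR, at chr11:68968426-68968505, had 23 IP and 4 SMInput reads in replicate 1 and was significant there. The overlapping cluster of replicate 2 had a log2(fold change) of 1.75.

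Among the carboxylate carriers, Slc25a1, which exports citrate for the synthesis of fatty acids and sterols, had a shared site in the 3′UTR. It lay at chr16:17925375-17925426 on the minus strand, in exon 9 of 9, 415 bases past the coding sequence and 175 bases from the end of the transcript. The reads were 15 IP and 6 SMInput in replicate 1 and 14 and 10 in replicate 2. Its log2(fold change) was 2.08 (0.64 to 3.74) and 2.33 (1.06 to 3.66), close to the threshold in both. With a Benjamini-Hochberg adjusted P of at most 0.05 the site was lost. Replicate 2 had 2 more significant clusters in this 3′UTR, the next of them with 25 IP and 17 SMInput reads.

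Slc25a10, the dicarboxylate carrier, and Slc25a11, the oxoglutarate carrier, were significant in replicate 1 alone. Slc25a10 had 8 IP and 2 SMInput reads in its 3′UTR, and Slc25a11 had 10 and 2 reads in its coding sequence. Slc25a21, a carrier of oxodicarboxylates, had the most clusters of the family, 89 and 44, in a gene of 484839 bases. Only 1 of these was significant in each replicate, both in introns and apart from each other. Per kilobase of the gene it had 0.184 and 0.0908 clusters, far fewer than Slc25a39.

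Slc25a30 belongs to the branch of the uncoupling proteins. Its shared site was intronic, at chr14:75776359-75776474 on the minus strand, and it rested on few reads. These were 7 IP and 1 SMInput in replicate 1 and 8 and 1 in replicate 2. On the log2 scale the fold change was 3.57 (0.61 to 9.06) and 4.85 (1.95 to 10.3). With a single SMInput read in both libraries the size of the enrichment is poorly set. Slc25a30 lost its site with a Benjamini-Hochberg adjusted P of at most 0.05, and also without clusters of a single SMInput read. Its relatives Slc25a14 and Slc25a27 were significant in replicate 2 alone, with 5 IP reads against 2 SMInput reads in an intron and with 7 against 1 in the 3′UTR.

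**Figure D3:**
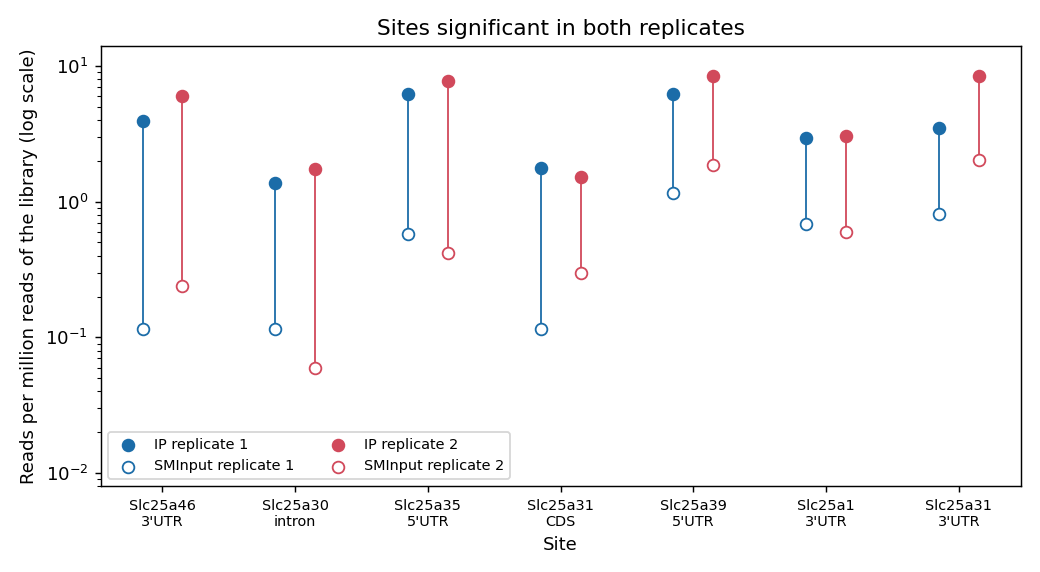
RPM, the reads of a cluster scaled to the library total (vertical axis, log scale), at the 7 sites of the family significant in both replicates, with IP as filled and SMInput as open circles for replicate 1 (blue) and replicate 2 (red), ordered by the smaller log2(fold change). For Slc25a35 in replicate 1 the strongest of its 3 clusters is drawn. In all 7 sites both IP libraries lie above both SMInput libraries, which within a replicate follows from the thresholds that chose the sites.

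Sequences are given for 6 of the 7 sites, to show the RNA under them, and that of the Slc25a46 site is not printed here. The following are the strand of the RNA in mm10, written as DNA, with the stretch common to both replicates for the intron and the coding sequence and the central 30 bases of it for the UTR sites. Capitals mark the letters GGAC or CACA where they occur. In Slc25a30 they mark instead the first 42 bases, which are 2 near copies of a stretch of 21 bases that differ at 2 positions. Of the positions of this stretch, 64 of 70 have the same base 21 positions on, and 46 of 49 have it 42 positions on. The other stretches did not repeat in this way, with at most 52.9% of positions equal at any distance.
Slc25a30 intron, chr14:75776367-75776457, minus strand: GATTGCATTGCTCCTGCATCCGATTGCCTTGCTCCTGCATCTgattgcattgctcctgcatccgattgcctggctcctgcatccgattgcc
Slc25a31 coding sequence, chr3:40721579-40721654, plus strand: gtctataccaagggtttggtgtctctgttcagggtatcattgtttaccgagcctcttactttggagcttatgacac
Slc25a31 3′UTR, chr3:40725407-40725436, plus strand: attgtattgtatgaccaatagttgaaaagt
Slc25a35 5′UTR, chr11:68968268-68968297, plus strand: tgtcgagccaccttcggcttttccctctga
Slc25a39 5′UTR, chr11:102407403-102407432, minus strand: aggcccctggcgtggcgcggcgcaaGGACc
Slc25a1 3′UTR, chr16:17925384-17925413, minus strand: cctgccttggcctacCACAgctgcctccag
The printed bases ranged in G and C content from 26.7% in the 3′UTR of Slc25a31 to 80% in the 5′UTR of Slc25a39. The 3′UTR cluster of Slc25a39 with the highest −log10(P value) in replicate 2 is shown for comparison by its central 30 bases, chr11:102403351-102403380, minus strand: gagactgagccaagtgccttccctcccagt

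A further 4 members had significant clusters in both replicates that did not overlap. These were Slc25a21 and Slc25a28, described above, Slc25a23, a carrier of Mg-ATP and phosphate, and Slc25a44, a carrier of branched-chain amino acids. Slc25a44 had 2 significant clusters in each replicate, with 8 and 7 IP reads in its 3′UTR in replicate 1, and with 7 reads there and 6 in its 5′UTR in replicate 2. In Slc25a23 both were in the 3′UTR, with 11 IP and 3 SMInput reads in replicate 1 and 8 and 7 in replicate 2. The antisense gene Gm17168 overlaps both clusters of Slc25a23, and the clusters were assigned by strand.

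The remaining members were significant in a single replicate or not at all. In replicate 2 alone these were Slc25a14, Slc25a16, Slc25a18, Slc25a24, Slc25a25, Slc25a26, Slc25a27, Slc25a33, Slc25a34, Slc25a36, Slc25a38, Slc25a40, Slc25a41, Slc25a45 and Slc25a51, or 31.9% of the family, beside 14.8% of all protein-coding genes. Among genes with a cluster in replicate 2 the shares were 34.1% and 25.3%. Of the 23 significant clusters in these 15 members, 20 had fewer than 10 IP reads and 13 fewer than 7. In replicate 1 a cluster with a single SMInput read needed 7 IP reads to pass, and in replicate 2 it needed 4. Of the 23 clusters, 9 had a single SMInput read, and the others had 2 to 13. Why these members passed in replicate 2 alone was not tested.

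Slc25a36 had the most of these, with 4 of its 6 clusters in the 3′UTR. Their IP reads were 14, 8, 11 and 7 and their SMInput reads 11, 4, 5 and 5. In replicate 1, 2 of the 4 stretches had a cluster, with a log2(fold change) of 1.40 and 2.76 and a −log10(P value) of 1.5 and 1.18.

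Another 17 members had clusters of which none was significant in either replicate. They included Slc25a2, Slc25a3, Slc25a4, Slc25a5, Slc25a12, Slc25a13, Slc25a15, Slc25a17, Slc25a20, Slc25a22, Slc25a32, Slc25a37, Slc25a42 and Slc25a43. Among these are the aspartate and glutamate carriers Slc25a12 and Slc25a13, with 6 and 27 clusters in replicate 1 and 2 and 2 in replicate 2. Slc25a29, Slc25a47 and Slc25a48 had no cluster in either table.

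Among significant member clusters, the shares by position in the gene were unlike in the 2 replicates, and this difference was not tested. Over all member clusters, the coding sequence held 19.1% and 25.1%, beside 27.4% and 34.8% in all protein-coding genes. The 3′UTR held 13.1% and 20.1% of them, beside 11.3% and 14.4%. In replicate 1, 12 of 28 significant clusters were in the coding sequence, or 42.9% (Wilson 95% interval 26.5% to 60.9%), beside 29.5% of all significant clusters in protein-coding genes. The 3′UTR held 7 of 28, or 25% (12.7% to 43.4%), beside 44.8%. With all transcripts of a gene in place of the basic ones, it held 11 of 28, or 39.3%, beside 48.5%, and the coding sequence held 8, or 28.6%, beside 26.0%. Both shares of the family in replicate 1 thus depend on the transcripts used, and come nearer to those of all genes with the larger set. In replicate 2, the 3′UTR held 24 of 51, or 47.1% (34.1% to 60.5%), beside 37.9%. The coding sequence held 6, or 11.8% (5.51% to 23.4%), beside 21.2%. With all transcripts, these shares were 51.0%, beside 41.1%, and 7.84%, beside 18.4%, so in replicate 2 they came no nearer to those of all genes. Slc25a39 alone gave 8 of the 12 clusters in the coding sequence of replicate 1.

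Introns held 4 of 28 and 17 of 51 significant member clusters, or 14.3% (5.70% to 31.5%) and 33.3% (22.0% to 47.0%), beside 23.2% and 38.9% of all. The 5′UTR held 5 of 28, or 17.9% (7.88% to 35.6%), and 4 of 51, or 7.84% (3.09% to 18.5%), beside 2.53% and 2.04%. In both replicates the interval of the family lay above the share over all genes. Over all member clusters, significant or not, the 5′UTR held 2.85% and 3.19%, beside 2.44% and 3.12%. In replicate 1 the 5 significant clusters came from only 2 genes, 4 from Slc25a35 and 1 from Slc25a39. Touching clusters of a gene are not independent. In replicate 2 the 4 clusters came from Slc25a35, Slc25a39, Slc25a41 and Slc25a44.

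Over all member clusters, the median log2(fold change) was 1.76 in replicate 1 and 1.85 in replicate 2. Over all clusters in protein-coding genes the medians were 1.46 and 1.53. Over member clusters with at least 10 IP reads they were 1.48 and 1.74, and the background at that cut is not given here. Slc25a21 alone gave 89 and 44 of the member clusters, with medians of 2.35 and 2.85. No stronger binding of the family is read from these medians. Member values ran from −1.82 to 5.08 and from −1.98 to 4.85, and 26 of 632 and 20 of 407 were below 0. Among significant member clusters the median was 2.76 and 2.85, beside 2.84 and 3.07 in protein-coding genes. A significant member cluster had a median of 15 IP reads in replicate 1 and 8 in replicate 2.

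The replicates can be set against each other wherever a member cluster of one overlapped a cluster of the other. There were 142 such pairs in 28 genes. In 121 pairs both values were above 0, in 12 both were below 0, and in 9 they differed in sign. Of the 12 pairs below 0, 10 were in Slc25a3. Pearson's r over the pairs was 0.67 and Spearman's rho 0.53, and without Slc25a3 they were 0.51 and 0.41. Pairs within a gene share its transcripts, and 39 pairs lay in Slc25a39, so these values are a description only.

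Significant clusters mostly had no significant partner. Of the 28 in replicate 1, 9 overlapped a significant cluster of replicate 2, 6 a cluster that was not significant, and 13 none. Of the 51 in replicate 2, the counts were 7, 17 and 27. The share with no overlapping cluster was thus 46.4% and 52.9%, beside 46.7% and 58.4% in all protein-coding genes, and that with one below the thresholds 21.4% and 33.3%, beside 20.5% and 23.3%. Of the clusters with a partner below the thresholds, all 6 and 16 of 17 had a partner or partners of which at least 1 was above 0. Since only 26 of 632 and 20 of 407 member clusters were below 0, partners above 0 are common in any case.

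Short motifs were counted on the cluster strand in windows of 100 bases around the centre of significant clusters. GGAC, the core of the m6A consensus, was in 8 of 28 member windows in replicate 1 and 12 of 51 in replicate 2, or 28.6% (15.3% to 47.1%) and 23.5% (14% to 36.8%). Over all significant clusters in protein-coding genes it was in 26.1% and 23.9%. CACA was in 28.6% (15.3% to 47.1%) and 39.2% (27.0% to 52.9%) of member windows, beside 37.0% and 34.6%. For both motifs the share over all genes lay within the intervals of the family.

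GAACA was in 1 of 28 and 5 of 51 member windows, or 3.57% (0.63% to 17.7%) and 9.80% (4.26% to 21%), beside 8.89% and 8.33%. AAACC was in 2 of each, or 7.14% (1.98% to 22.6%) and 3.92% (1.08% to 13.2%), beside 8.62% and 8.03%. In the 3′UTR alone, GGAC was in 1 of 7 and 3 of 24 member windows, or 14.3% and 12.5%, beside 24.9% and 23.4%. CACA was in 2 of 7 and 9 of 24, or 28.6% and 37.5%, beside 38.3% and 35.9%. In the coding sequence GGAC was in 6 of 12 and 1 of 6, or 50% (25.4% to 74.6%) and 16.7% (3.01% to 56.4%). Over all genes the shares were 29.6% and 29.5%, within both intervals. Most of the 12 windows came from Slc25a39, where touching clusters give overlapping windows, so no excess is read from the 50%.

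The machinery that brings carriers to the inner membrane was read from a list of 10 genes. Of these, 4 had a significant cluster in replicate 1, 8 in replicate 2 and 4 in both, beside 26.1%, 36.8% and 21.9% of all protein-coding genes. Among all genes with a cluster the shares were 40.8% and 62.8%, and among those with clusters in both replicates 39.1%. By clusters, 11 of 130 were significant in replicate 1, or 8.46% (4.79% to 14.5%), and 18 of 84 in replicate 2, or 21.4% (14% to 31.3%), beside 4.92% and 13.2% of all clusters. The background lay within the interval in replicate 1 and just below it in replicate 2. Clusters of a gene are not independent, and Tomm22 held 5 of the 18 in replicate 2, so no excess is read from these intervals. Tomm22 and Tomm70a, receptors of the outer membrane, each had a site shared by both replicates. Tomm22 had 4 of 11 and 5 of 12 clusters significant, with up to 44 and 34 IP reads.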

How the data were processed

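Per the submitters' processing notes and the study's methods, the authors trimmed reads with cutadapt, removed ribosomal RNA with Bowtie2, aligned to mm10 with STAR, collapsed duplicates by molecular identifiers and called clusters with Clipper, per replicate. The deposited −log10 values are P values of IP against SMInput reads in a cluster, and a value of 0 is listed both for clusters with IP below SMInput and for some with IP above it. The deposited log2 values are IP over SMInput ratios after scaling for library size.

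Whole reads and library totals were recovered as the numbers that return both listed values, by Fisher's exact test where a read number was below 5 and otherwise by chi-square with Yates' correction. A single solution existed for 98.9% and 99.2% of clusters with values between 0 and 400, and for every significant member cluster. The recovery was tested on simulated data. Counting intervals on fold changes are exact binomial, cover counting error only, and assume independent reads after duplicate removal.

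Regions came from basic GENCODE M21 transcripts, 3′UTR before coding sequence, 5′UTR and intron. A cluster in several genes was counted once in the background. Positions in mRNAs refer to the longest principal transcript. Members with a shared site were described gene by gene, without every significant cluster, and the others by class. Not every member is reported by name here. Members and lists were chosen with earlier results of these data known. Python 3 with pandas, scipy and pysam was used.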

Additional observations from a re-analysis of the deposited data

How the results depend on the processing

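No paired analysis was possible because the results come from no test of sample groups to which a block could be added, and each log2(fold change) already is a ratio within a replicate. Across 54 alternative values, 34 stayed within their limits, which were 1.5 times for counts, the 95% Wilson interval for shares and 1 SD of the replicates for medians. With both thresholds at 3, significant member clusters numbered 6 and 5, and 2 members (Slc25a35 and Slc25a46) with 2 sites remained. With the fold threshold at 1, there were 52 and 77 clusters and 20 sites, in the same 6 members. With Benjamini-Hochberg adjusted P of at most 0.05, there were 17 clusters in replicate 1, 11.8% of them in the 3′UTR, and 4 members in both replicates, without the sites of Slc25a1 and Slc25a30. With at least 10 IP reads, there were 20 clusters in replicate 2 and 6 members in both, and the median log2(fold change) over all such clusters was 1.48 and 1.74. Leaving out clusters with a single SMInput read, a choice made after seeing the data, left 4 sites, without those of Slc25a46 and Slc25a30 and the coding site of Slc25a31. The members counted ranged from 12 without replicate 2 to 25 without replicate 1. By nearest transcription start site there were 14 members, 8 of them among the 10. In windows of 50 bases, GAACA was in 0% and 1.96%, beside 4.13% and 3.72% over all genes, and CACA in 14.3% and 15.7%, beside 19.7% and 17.8%. The cause of these shifts was not tested. Low read numbers limit most single clusters.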

Other observations

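Other genes of mitochondrial transport were read in the same way from the listed sets. Of 5 genes with the carrier fold under other symbols, 3 had a significant cluster in replicate 1, 2 in replicate 2 and 2 in both. Beside these stand 26.1%, 36.8% and 21.9% of all protein-coding genes. Among all genes with a cluster the shares were 40.8% and 62.8%, and among those with clusters in both replicates 39.1%. Of the clusters of the 5 genes, 7.46% and 9.26% were significant, beside 4.92% and 13.2% of all clusters. Mtch2, an insertase of the outer membrane, had a site shared by both replicates, with 3 of 32 and 4 of 30 clusters significant. Ucp1, the uncoupling protein of brown fat, had no cluster in either table. Ucp2 had 1 of 16 and 1 of 11 clusters significant, without a shared site.

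Of the 10 listed genes of other mitochondrial transport, 9 were found in the annotation, and 4 of these were significant in both replicates. This stands beside 21.9% of all protein-coding genes and 39.1% of those with clusters in both replicates. By clusters the shares of the listed genes were 4.52% (2.48% to 8.13%) and 11.5% (7.12% to 18.2%). Both intervals held the share of all clusters, 4.92% and 13.2%. Mpc2, a subunit of the pyruvate carrier, and the porins Vdac2 and Vdac3 had shared sites. Vdac2 had 4 of 27 and 4 of 21 clusters significant, with up to 48 and 46 IP reads.

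Larger groups are read beside 21.9% of all protein-coding genes significant in both replicates and 9.33% with a shared site. Among all genes with clusters in both replicates these shares were 39.1% and 16.6%. Here 7 of 78 mitochondrial ribosomal protein genes were significant in both replicates, or 8.97%, and 4 had a shared site, or 5.13%. Of 88 genes of oxidative phosphorylation subunits, 23 were significant in both, or 26.1%, and 10 had a shared site, or 11.4%. Of 324 other Slc genes, the counts were 67, or 20.7%, and 31, or 9.57%. In the Slc25 family the shares were 21.3% and 12.8%. By clusters, the other Slc genes had 6.01% (5.32% to 6.79%) and 18.6% (17.1% to 20.2%) significant, above the 4.43% and 12.5% of the family and the shares over all clusters. The mitochondrial ribosomal protein genes had 4.42% and 13.0%, beside 4.92% and 13.2% of all clusters. The genes of oxidative phosphorylation subunits had 5.77% and 11.3%.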
